A study of Mus musculus with 6 samples.

Results

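The regions described here are the recurrent m6A peaks of mouse brain RNA that rested on the fewest immunoprecipitated tags. Overlapping peaks of the 3 deposited lists, with 1 common base as the minimum, were joined, and 43377 regions resulted. Of these, 16757 held a peak of every list, 16348 of them on autosomes. Regions were chosen by measured pileup: one was kept where its highest pileup, the number of immunoprecipitated (IP) tags stacked over the peak summit, was 10 or less in each of the 3 lists and where it lay on an autosome. That left 763 regions, called low-pileup regions below, or 4.67% of the autosomal regions found in all 3 lists (95% Wilson interval 4.35 to 5.0). The other 15585 autosomal regions found in all 3 lists served for comparison. The X chromosome had 13 regions within the same limit among its 409, 3.18% (1.87 to 5.36), and these were left out by the rule.

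N6-methyladenosine is an internal modification of messenger RNA, written by a methyltransferase complex with METTL3 as its catalytic subunit and read by proteins of the YTH family. In m6A-seq, fragmented RNA is enriched with an antibody against the modification and sequenced beside unenriched input RNA. A peak is a stretch where IP tags exceed the local input. Brain transcripts carry many such marks, typically near stop codons and in long exons, and the number of tags over a site depends on how much of the transcript is present as well as on how much of it is methylated.

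The source was polyadenylated RNA of whole mouse brain, with 3 IP libraries made with an m6A antibody and 3 input libraries made with none. All were of 1 tissue, with no second condition, and the labels gave no genotype, strain or age. Each list came from 1 IP library and 1 input. After the authors' removal of duplicates the IP libraries held 5676427, 6493926 and 6327958 tags and the inputs 7436658, 11589632 and 7185922. The lists gave positions on mm9 with neither gene names nor strand, so the gene, exon or UTR at each position and its sequence are not given here, and the brain origin could not be checked against marker genes.

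Low-pileup regions were narrow and rested on a handful of tags in each library. In m6A IP 1, 2 and 3 the median stood at 7, 8 and 7 tags, and the median summed pileup over the 3 lists was 22 tags. The lowest pileup in each list was 3 tags. For a single pileup of 10 the 95% Poisson interval, computed exactly, runs from 4.80 to 18.4 tags, and for one of 3 from 0.619 to 8.77. These intervals take the pileup as a plain count and leave out any other error, and tags are reads without molecular identifiers. A pileup is the highest of a called peak, with 1 tag kept per position, so the intervals are a rough guide only. The pileups are what chose the regions, so they describe the selection and support nothing further.

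The 3 lists differed in where their pileups fell below the limit. In m6A IP 2, 154 of the 763 regions stood at exactly 10 tags, against 101 and 48 in the lists m6A IP 1 and 3. At 5 tags the order turned round, with 135 regions in m6A IP 3 against 79 and 55 in the first and the second list. Mean pileups were 7.20, 7.78 and 6.69 tags in the same order of lists, m6A IP 1 to 3. Scaled to an equal number of IP tags kept (1000000), these means became 1.27, 1.20 and 1.06, so m6A IP 3 stayed lowest and m6A IP 1 took the place of m6A IP 2 as the highest. Among the other autosomal recurrent regions the same scaling gave 4.58, 4.10 and 3.81, the same order.

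**Figure D1:**
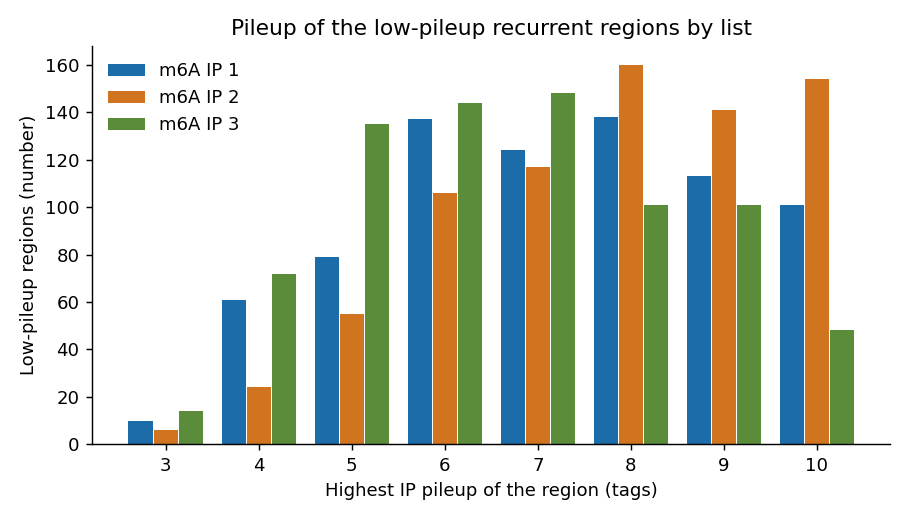
Number of low-pileup regions (vertical axis) at each value of the highest IP pileup in tags (horizontal axis), with 1 bar for each list. The bars of m6A IP 2 stand toward 8 to 10 tags, with 154 regions at 10, and those of m6A IP 3 toward 5 to 7, with 48 regions at 10.

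Within a region the 3 pileups were few tags apart, which the bounds given below partly fix. Relative to their mean they were farther apart than in the other regions. They lay within 2 tags of one another in 398 of the 763 regions and were equal in 32, while 75 regions had pileups 5 or more tags apart, up to 7. The median coefficient of variation over the lists was 18.3%, against 9.62% in the other regions. Divided by the square root of the mean pileup, the median SD was 0.5 in low-pileup regions and 0.475 in the others. The calling threshold below and the limit of 10 above both narrow the spread that a low-pileup region can show. Across the 763 regions Spearman's rho of the pileup was 0.316 for m6A IP 1 and 2, 0.369 for m6A IP 1 and 3 and 0.348 for m6A IP 2 and 3. In the other 15585 regions it was 0.933, 0.936 and 0.927, over a far wider range of pileups. Regions can share a transcript and every one shares the same 3 libraries, so these are descriptions without a p-value.

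The limit cut through a continuous range. Just inside it, 245 regions had a highest pileup of exactly 10, with medians of 9, 10 and 8 tags in m6A IP 1, 2 and 3 and a median mean fold of 6.13. Just outside, 269 regions had a highest pileup of 11, with medians of 10, 11 and 9 tags and a median mean fold of 6.44. A further 606 autosomal recurrent regions were at 10 or less in exactly 2 lists and 829 in exactly 1.

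Peaks this low recurred less often than higher ones. Of the autosomal peaks with a pileup of 10 or less there were 6676, 5918 and 5146 in m6A IP 1, 2 and 3. The share lying in a region found in all 3 lists was 22.6% (Wilson 95% interval 21.6 to 23.7), 20.6% (19.6 to 21.7) and 39.2% (37.8 to 40.5), a mean of 27.5% ± 10.2 (SD, n = 3 lists), or 12.1% with a reciprocal overlap of 50%. Leaving out 1 list and asking for a peak in both others gave 40.1% to 43.1%, the highest of these without m6A IP 3. For higher autosomal peaks it was 69.4% ± 12.6, and it was above that of the low peaks in each of the 3 lists. The part of the low peaks that lay in low-pileup regions was 11.8%, 13.3% and 15.2%. The remainder of the recurrent low peaks lay in regions that went above 10 tags in at least 1 list. Seen by region, 10645 autosomal regions stayed at 10 or less in every list that had a peak there. Of these, 72.7% were in 1 list, 20.1% in 2 and 7.17% in all 3, the 763 described here. Among the 31490 autosomal regions that went above 10 tags in some list, 49.5% were in all 3. Height is part of what makes a peak callable, so this difference in recurrence is not independent of the measure that set the limit.

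Within the low range, recurrence climbed with each list's pileup. At 3 tags, 5.75%, 3.48% and 10.3% of peaks in m6A IP 1, 2 and 3 lay in regions found in all 3 lists. At 7 tags the shares were 23.9%, 19.4% and 41.6%, and at 10 tags they were 35%, 35.1% and 59.7%. There was no step at the limit: at 11 tags the shares were 36.8%, 39.2% and 61.2%. The shares of m6A IP 3, the shortest list, were above those of both other lists at each of these pileups.

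**Figure D2:**
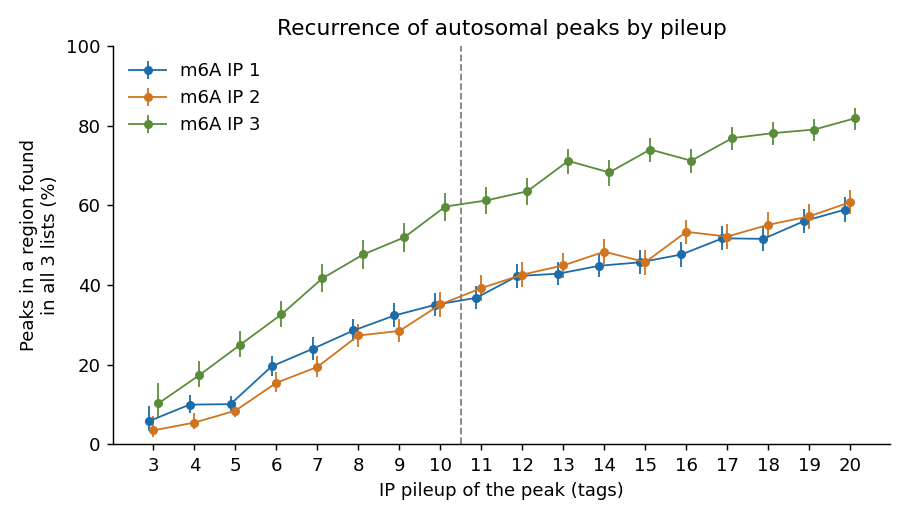
Share of autosomal peaks that lie in a region found in all 3 lists (vertical axis, %), by the peak's own IP pileup in tags (horizontal axis), for each list with 95% Wilson intervals. The dashed line marks the limit of 10 tags, where the shares reach 35%, 35.1% and 59.7% in m6A IP 1, 2 and 3.

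Enrichment in the low-pileup regions stood over almost no input. The deposited fold enrichment, a ratio computed by the authors' peak caller from the pileup and the local input with 1 added to each, had a median of 5.85, 5.77 and 5.41 in m6A IP 1, 2 and 3. Averaged over the lists, the fold had a median of 5.73, with quartiles of 5.15 and 6.45, against 5.06 in the other regions, and the highest was 8.87. At like input the order was the reverse. With a mean background under 0.25 scaled tags the median was 6.13 in low-pileup regions and 9.72 in the others, and from 1 to 2 tags it was 4.70 and 6.96. At equal background the fold follows the pileup by definition. The background under these folds was a median of 0.229, 0.476 and 0.211 scaled input tags. In the other regions the mean of the 3 list medians was 4.23 tags ± 0.364 (SD, n = 3), against 0.306 ± 0.148 in the low-pileup regions. Fold and background belong to the same IP against input contrast as the pileup, so both are given as descriptions.

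With at most 10 IP tags, the peak caller could pass only sites with little input. The highest background at which a pileup of 10 was called was 2.48, 2.25 and 2.29 scaled tags in m6A IP 1, 2 and 3, and for a pileup of 5 it was 0.637, 0.700 and 0.660. The fold of such a site is also bounded from above. At 10 tags over the genome-average background, the lowest background MACS uses, it is 9.55, 9.37 and 9.41. The mean fold was at least 5 in 615 of the 763, 80.6% (77.6 to 83.3), against 52.4% of all autosomal recurrent regions. Spearman's rho of the fold was 0.231, 0.0905 and 0.147 for the pairs 1 and 2, 1 and 3, and 2 and 3 over the 763 regions. In the other regions it was 0.650, 0.631 and 0.637, and the limit on pileup narrows the range of folds it runs over in the low-pileup regions.

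**Figure D3:**
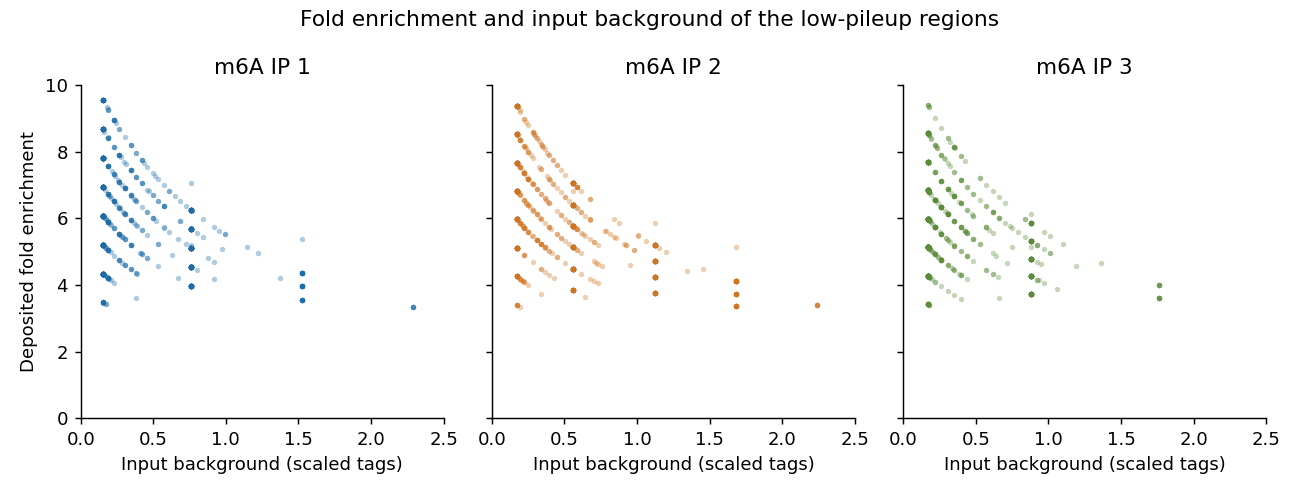
Deposited fold enrichment (vertical axis) against the input background in scaled tags (horizontal axis) for the 763 low-pileup regions, 1 panel for each list and 1 point for each region. Most points fall on separate curves, 1 for each whole pileup up to 10. Points gather at the left edge, where the background is the genome average and the fold reaches 9.55, 9.37 and 9.41. A point can leave its curve where a list had more than 1 peak in the region, as fold and background may then come from different peaks.

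No input tag lay over the summit in all 3 lists for 289 of the low-pileup regions, 37.9% (34.5 to 41.4). Over all 16348 autosomal recurrent regions that share was 2.72%, and 156 of the other 15585 regions had it. By list, the summit was free of input tags in 71.3%, 51.8% and 80.7% of the low-pileup regions in m6A IP 1, 2 and 3. The list with the lowest share, m6A IP 2, had the deepest input. In 60 low-pileup regions, 7.86% (6.16 to 9.99), the background was as high as 1 input tag or more in all 3 lists, against 85.5% of all autosomal recurrent regions. In 114 regions, 14.9% (12.6 to 17.6), the genome average was the background in each of the lists, against 1% of all autosomal recurrent regions. At that level the surrounding 1000 bases held at most 3, 6 and 3 input tags in m6A IP 1, 2 and 3. These 114 regions had a median mean fold of 6.29, and the remaining 649 had 5.70. In RNA of a whole brain, a transcript made by few cells and one made at a low level in many cells cannot be told apart.

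The regions with the highest mean fold were those that came close to the limit with no input tag over the summit. Both chromosome 2 from 12358862 to 12358936 (mm9), 75 bases long, and chromosome 7 from 36587852 to 36587980, 129 bases long, showed 9, 10 and 9 tags in the 3 lists. Their folds were 8.68, 9.37 and 8.55 in those lists, a mean of 8.87 ± 0.441 (SD, n = 3). Both stood over the genome average in every list, where equal pileups give equal folds. The summits of the chromosome 2 region lay within 6 bases of one another and those of the chromosome 7 region within 58. Next came chromosome 16 from 16870962 to 16871045, with 9, 10 and 9 tags and a mean fold of 8.70 ± 0.434. On chromosome 5 from 149827072 to 149827305, pileups of 10, 10 and 8 tags gave a mean fold of 8.67 ± 0.871. On chromosome 8 from 114045829 to 114045914, pileups of 10, 9 and 8 tags gave 8.59 ± 0.928.

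The lowest mean folds came about in different ways. On chromosome 17 from 12511865 to 12512019, pileups of 8, 10 and 7 tags stood over backgrounds of 1.53, 2.24 and 0.881 scaled tags, and the mean fold was 3.74 ± 0.456. On chromosome 13 from 64297695 to 64297792, 8, 9 and 7 tags gave 3.82 ± 0.307. On chromosome 11 from 68760785 to 68760890, 10, 10 and 7 tags gave 3.96 ± 0.504. In each of these regions the background was at least 0.881 scaled tags in every list. By contrast, chromosome 3 from 86978334 to 86978550, 217 bases long, showed 3, 3 and 5 tags over the genome average in every list, with a mean fold of 4.0 ± 0.977. The third lowest of all, on chromosome 1 from 84280976 to 84281075, had 7, 8 and 4 tags and a mean fold of 3.91 ± 0.594.

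A few regions recurred on barely more than the smallest callable number of tags. The chromosome 3 region above and one on chromosome 8 from 34752523 to 34752719, with 4, 3 and 4 tags, had the lowest sum. It was 11 tags over the 3 libraries (exact Poisson 95% interval 5.49 to 19.7, taken as a plain count). Their outermost summits lay 85 and 158 bases apart, so each sum adds pileups read at different positions. Sums of 12 tags (6.20 to 21) were found on chromosome 8 from 119462138 to 119462237 with 5, 3 and 4 tags, on chromosome 10 from 19653552 to 19653653 with 4, 4 and 4, and on chromosome 10 from 59866029 to 59866083 with 4, 3 and 5. The first chromosome 10 region had nearly the same fold in each list, 4.29 ± 0.0428, since its pileup and its background were the same to within the libraries' genome averages. In the regions with sums of 12 tags the outermost summits lay 43, 17 and 7 bases apart, in the order given. In all, 23 of the 763 regions were at 5 tags or less in every list. At the other end, 4 regions stood at exactly 10 tags in all 3 lists. One, on chromosome 4 from 154015918 to 154016054, had a mean fold of 5.56 ± 0.337. A pair on chromosome 7 had 4.45 ± 0.515 (52104829 to 52104920) and 5.80 ± 0.596 (52900046 to 52900182). The last, on chromosome 9 from 90113562 to 90113732, had 4.97 ± 1.61, so equal pileups did not bring equal folds.

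The summits of the 3 lists lay less close together than in taller regions. The rule asked for overlapping peaks in all 3 lists, so some closeness was built in for every recurrent region. The median distance between the outermost of the 3 summits was 37 bases in low-pileup regions and 22 in the others. The upper quartiles were 73 and 61 bases. With a reciprocal overlap of 50% the medians were closer, 25.5 and 19 bases. The 3 summits lay within 10 bases in 100 low-pileup regions, 13.1% (10.9 to 15.7), against 31.5% of all autosomal recurrent regions. Between pairs of lists the median summit distance was 20, 22 and 20 bases, against 10, 11 and 11 in the other regions, so it was longer in each of the 3 pairs. The highest peaks of the 3 lists shared a base in 692 regions, 90.7% (88.4 to 92.6), against 97% of all autosomal recurrent regions. In the remaining 71 they were joined only through a chain of overlaps. The median distance was 32 bases in regions with a highest pileup of 11 to 15, 25 bases at 16 to 20 and 17 bases above 40. At a matched background under 0.25 scaled tags it was 37 bases in the 230 low-pileup regions and 13 in the 98 others, with median mean pileups of 6.33 and 10.5 tags. The part of tag number in the summit distance was not tested.

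Low-pileup regions were short, with a median length of 141 bases and a longest of 527, against a median of 188 in the other regions. A single peak from each list made up 705 of them, 92.4% (90.3 to 94.1), against 86.3% of all autosomal recurrent regions. The longest lay on chromosome 10 from 60609519 to 60610045, with 9, 9 and 5 tags and a mean fold of 6.44 ± 1.82. A second, 509 bases on chromosome 13 from 15817233 to 15817741, had 9, 9 and 6 tags and 5.83 ± 0.749. On chromosome 10 from 87842111 to 87842588, pileups of 8, 7 and 7 tags came with summits 394 bases apart, the widest distance of all 763 regions, so this region held separate maxima in different lists. On chromosome 4 from 109338667 to 109339128, 6, 10 and 8 tags came with summits within 13 bases. The last, on chromosome 3 from 80670730 to 80671161, had 8, 7 and 7 tags and summits 209 bases apart.

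The distance to other regions was not part of the rule. A neighbour counted only where it was itself found in all 3 lists, however, and recurrence rose with pileup. Another region found in all 3 lists lay within 1000 bases of 155 low-pileup regions, 20.3% (17.6 to 23.3), against 37.6% (36.9 to 38.4) of the other regions and 36.8% of all 16348. The share was below that of the other regions on each of the 19 autosomes, although some of these shares rest on few regions, such as 16 on chromosome 18. With a reciprocal overlap of 50% required between lists, which left 328 low-pileup regions, it was 7.93% against 26.2%. The median distance to the nearest recurrent region was 25226 bases, against 4346, and was longer on each of the 19 autosomes. With peaks of any list counted, recurrent or not, the difference was smaller. Such a peak lay within 1000 bases of 360 low-pileup regions, 47.2% (43.7 to 50.7), against 57.4% (56.6 to 58.2) of the other regions. No other peak of any list lay within 50000 bases of 84 low-pileup regions, 11% (8.98 to 13.4), against 5.2% of all autosomal recurrent regions. Regions of 1 transcript are not independent, so no test across regions was made.

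The share with a neighbour went with pileup and with input. By highest pileup it was 26% at 11 to 15 tags, 35% at 16 to 20, 37.9% at 21 to 25 and 41.6% at 31 to 40, and it was lower again, 38.9% (36.7 to 41.2), above 40. Among regions of like input the low-pileup regions stood above the others in 3 of 4 ranges and below them in 1, and the intervals overlapped in each. With a mean background under 0.25 scaled tags, 15.7% (11.5 to 20.9) of 230 low-pileup regions and 13.3% (7.92 to 21.4) of 98 others had a neighbour. From 0.25 to 0.5 the shares were 19.4% (15.3 to 24.4) and 14.5% (11.1 to 18.6), and from 0.5 to 1 they were 25.2% (19.8 to 31.7) and 24.5% (22.0 to 27.2). From 1 to 2 they were 27.9% (16.7 to 42.7) of 43 regions and 32.0% (30.1 to 34.0) of 2226. These 4 ranges were chosen after the data were seen, and pileup still differed within them.

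**Figure D4:**
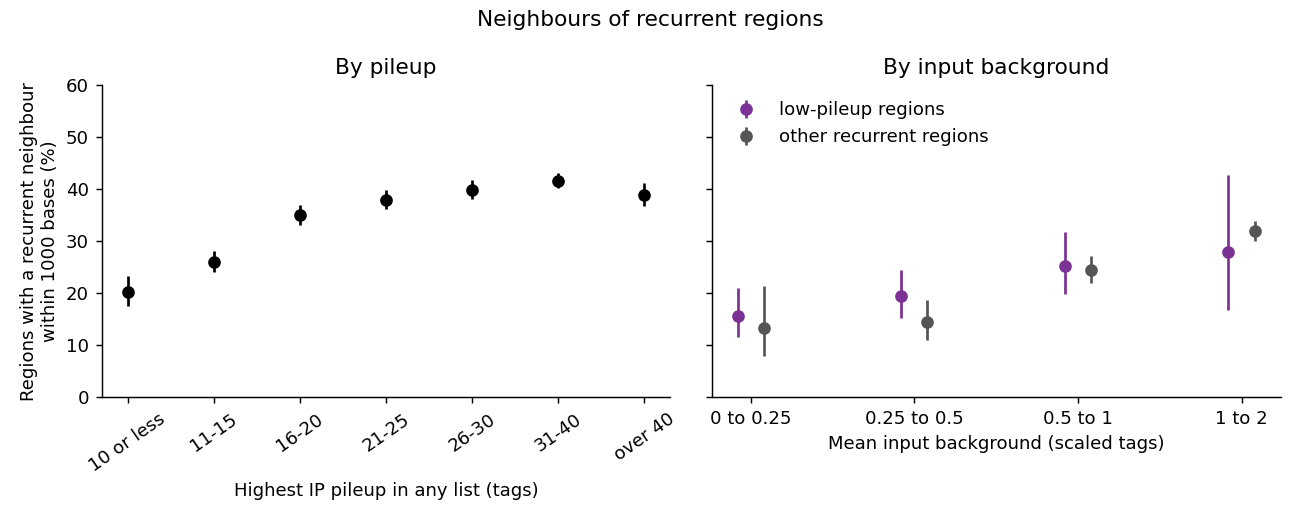
Share of autosomal recurrent regions with another recurrent region within 1000 bases (vertical axis, %), with 95% Wilson intervals, by highest IP pileup in tags (left) and by mean input background in scaled tags (right). On the left the share is 20.3% at 10 tags or less, 41.6% at 31 to 40 and 38.9% above 40. On the right the intervals of low-pileup and other regions overlap in all 4 ranges of background, which end at 2 tags and leave out most of the other regions.

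Where a low-pileup region had a recurrent neighbour, that neighbour was low as well more often than among the other regions, though not in most cases. In 52 of the 155 regions with one, 33.5% (26.6 to 41.3), the nearest recurrent region was itself a low-pileup region. Among the 5863 other regions with a neighbour this was so in 107, 1.83% (1.51 to 2.20). Of all 6018 autosomal recurrent regions with a neighbour, 155 were low-pileup regions, and 159 had a low-pileup region as the nearest. Both regions of a close pair can have each other as the nearest, so the 52 are not 52 separate places. In 122 of the 155 the nearest recurrent region had a higher mean pileup than the low-pileup region itself. The limit of 10 tags keeps a low-pileup region's own mean low, so this count partly reflects the rule. Low-pileup regions with and without a neighbour had nearly the same median mean fold, 5.74 and 5.73. The median pileup of the nearest recurrent region was 10.3 tags for those with a neighbour and 21.3 tags for those without.

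In all, 27 low-pileup regions had 2 or more recurrent regions within 1000 bases. The region on chromosome 14 from 118635504 to 118635702 was the only one with 3 recurrent regions within 1000 bases. It had 10, 9 and 9 tags, and its mean fold was 4.34 ± 0.874. On chromosome 1 from 3661910 to 3662045, a region with 6, 8 and 7 tags and a mean fold of 6.06 ± 0.541 had 2 neighbours. So did one on chromosome 2 from 156904337 to 156904498, with 7, 6 and 5 tags, 61 bases from its nearest neighbour.

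The low-pileup region closest to a recurrent region with 40 or more tags in every list was on chromosome 10 from 79578700 to 79578829, 478 bases from a region with a mean pileup of 41.3 tags. Its own pileups were 9, 6 and 9 tags, with a mean fold of 5.40 ± 1.25. The next closest were already 5624 and 6415 bases away, on chromosome 7 from 28261166 to 28261394 with 10, 9 and 10 tags and on chromosome 11 from 115891743 to 115891805 with 7, 9 and 8.

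The 3 most isolated low-pileup regions had closely placed summits. On chromosome 11 from 27094662 to 27094745, 807352 bases from any other peak of the 3 lists, 9, 7 and 9 tags had summits within 2 bases and a mean fold of 7.45 ± 2.02. On chromosome 3 from 72213650 to 72213706, 638408 bases from any other peak, the pileups of 5, 10 and 7 tags were less alike, with summits within 3 bases. On chromosome 19 from 51375114 to 51375243, 621717 bases from any other peak, 5, 9 and 9 tags had summits within 11 bases. All 3 had folds above the median of 5.73 on average, at 7.45, 7.14 and 7.43.

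Low-pileup regions were spread over all 19 autosomes in near proportion to the recurrent regions there. The share of an autosome's recurrent regions that were low-pileup ran from 3.17% (1.96 to 5.08) of 505 on chromosome 18 to 6.96% (5.11 to 9.41) of 546 on chromosome 13. The overall share of 4.67% lay outside the interval of 1 of the 19 autosomes, chromosome 13. Chromosome 2 had the largest number, 65. They were thinly scattered: 581 of the 1958 windows of 1000000 bases with a recurrent region held at least 1, and 37 held 3 or more. The window with the most, picked out after its value was seen, held 5 of 18 recurrent regions on chromosome 8 between 128000001 and 129000000.

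**Figure D5:**
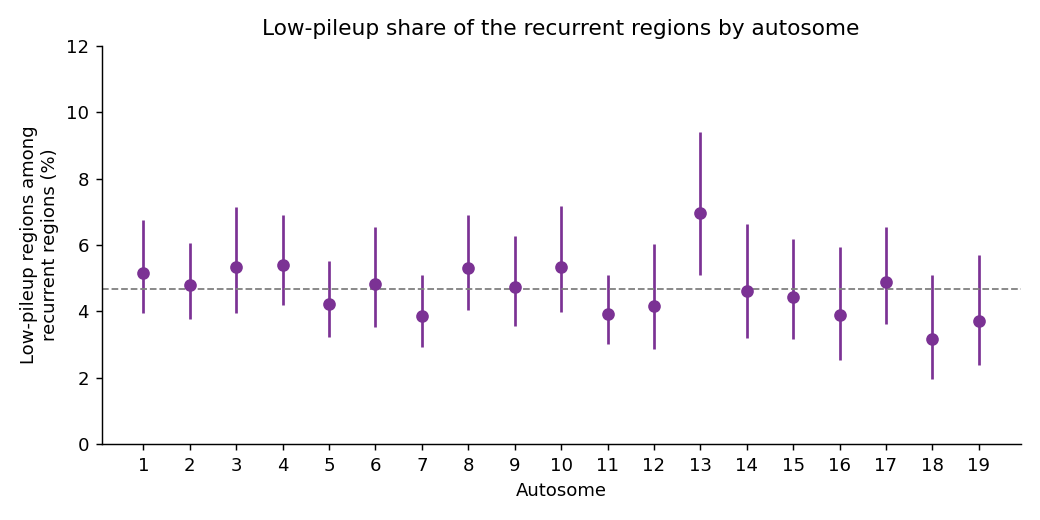
Low-pileup regions as a share of the recurrent regions (vertical axis, %) on each autosome (horizontal axis), with 95% Wilson intervals. The dashed line is the share over all autosomes, 4.67%, which lies inside every interval but that of chromosome 13, at 6.96%.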

How the data were processed

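Per the submitters' processing notes, tools included TopHat2 2.1.0 and MACS2 2.1.0, with build mm9. Peaks were called in each replicate separately with MACS 2.1.0.20151222 at a q-value cutoff of 0.05, per the file headers. These also record 50-base tag extension, 1 tag kept per position and down-scaling of the larger library. The pileup is a coverage signal, the fold a ratio, and peak strength a −log10 p-value and −log10 q-value, all as deposited by the authors. Positions are 1-based.

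The input background was recovered as (pileup + 1) / fold − 1. A background below 1 scaled input tag was read as no input tag over the summit, with a tolerance of 0.01. A region's pileup and fold were each the highest of its peaks in a list, while summit and background came from its highest peak. The annotation at hand was on GRCm38, so no gene, motif or sequence was assigned.

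Members and lists were chosen with earlier results of these data known. The ranges of pileup and background, the windows and the X count were chosen after seeing the data. Named regions were the 5 of highest and lowest mean fold, the 5 of lowest summed pileup, the 5 longest, the 3 most isolated, the 3 with most neighbours, the 3 nearest to a region with 40 tags or more, and those with 10 tags in every list. The labels do not state whether the replicates were separate animals, and SDs may measure technical spread. Merging was tested on simulated lists with a single peak per list at each place. Those peaks always shared bases, so joining through a chain of overlaps was not tested. Intervals were computed with scipy 1.17.1, tables with pandas 2.3.3 and numpy 2.4.6, and figures with matplotlib 3.10.9 (Python 3.11.15). Alternatives changed the q threshold, overlap, pileup limit, region pileup, distance and lists required.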

Additional observations from a re-analysis of the deposited data

How the results depend on the processing

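Under the alternatives run, 21 of 43 values stayed within their spread or interval or, for the number of regions, within 1.5 times of 763. The number of low-pileup regions was set mainly by the rule: 328 with a reciprocal overlap of 50%, 329 at a limit of 8 tags, 1371 at a limit of 12 and 1431 to 1944 when 1 list was left out and both others were enough. With a reciprocal overlap of 50%, the share of low peaks in recurrent regions was 12.1% and the share of low-pileup regions with a neighbour 7.93%. The median summit distance was then 25.5 bases, against 19 in the other regions. At a limit of 8 tags the share with a neighbour was 17.0%, the summit distance 40 bases and the median mean fold 5.43. At a limit of 12 the fold was 6.0. A neighbour lay within 500 bases of 15.5% and within 5000 bases of 25.4%. Leaving out each list in turn, the share of low peaks in recurrent regions was 40.1% to 43.1%, the share with a neighbour 21.4% to 26.1%, the fold 5.55 to 5.60 and the summit distance 17 to 19 bases, between 2 summits in place of 3. The share with a neighbour was below that of the other regions in all 11 settings, the main one included. No paired analysis was possible because each IP library and its input were already joined in 1 peak list and no result came from a test. Taken as a plain count, a pileup of 10 has an interval of 4.80 to 18.4 tags. So few tags limit what can be said of 1 region in 1 list.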
